A study of Mus musculus with 5 samples.

Results

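The genes described here are 34 mouse genes of lysosomal enzymes, lysosomal membrane proteins and their regulators, 11 of them cathepsins, out of 55401 genes in the deposited table. They were chosen by gene symbol, though with earlier results of these data known, and cathepsin K (Ctsk) was set against the other cathepsins. Expression was measured by RNA-seq in BMSCs, the mesenchymal stem cells of the bone marrow that grow as attached stromal cells, from mice of genotype WT. The cells were cultured for 72 h, and 4 cultures were held under continuous negative pressure for 48 h at -80, -120, -160 or -200 mmHg, with a culture at 0 mmHg as the control. Each condition had 1 library of total RNA, so no difference has a replicate check, no test between conditions was possible and no p-value is given. Strain, age and sex of the mice, and whether cells were pooled, are not given in the sources used here.

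Values are FPKM, fragment counts scaled for exon length and library size, a level that can be compared between genes because it is per length. Differences are of log2(FPKM + 1) against the control, a scale that understates the change of genes with low levels. A gene was called measured where its mean in the 5 libraries reached 1 FPKM, which 31 of the 34 genes and 12113 of all genes reached. A measured gene passed the size rule at a log2 difference of at least 1, which is 2-fold on that scale. Ctss, Ctsc and Acp5 fell below the filter and are described by their reads. The deposited values gave back whole reads, with library totals from 16600622 to 18398911, and intervals in brackets are exact Clopper-Pearson intervals at 95% that cover counting error only.

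The control library stood apart from the 4 pressure libraries. It held 2493 reads of 4 Y-linked genes, and the pressure libraries held 0. By these reads the control held cells with a Y chromosome, and none were detected in the pressure libraries. Pressure and a separate origin or sex of the control cells thus cannot be told apart in any difference given here. Each difference is taken from that 1 library. Lamp2 and Gla lie on the X chromosome. Of 12 stromal markers 10 were measured, 0 were higher and 2 lower by the size rule at every pressure, beside 6.49% and 4.46% of all genes. At no pressure did 5 of them pass it, beside 78.1% of all genes. Col1a2 (a fibrillar collagen chain) stood at 454 FPKM in the control against 463 to 574 FPKM under pressure, and Cxcl12 (a chemokine of marrow stroma) at 201 and 129 to 140 FPKM. Vim (an intermediate filament of mesenchymal cells) stood at 940 FPKM in the control against 210 to 235 FPKM under pressure, and Ly6a (the Sca-1 antigen) at 1741 and 622 to 828 FPKM. The surface markers Thy1 and Lepr were near 0 in the control, with 1 and 4 reads against 51 to 91 and 24 to 50 under pressure, whereas Pdgfrb (64.9 FPKM against 47.3 to 54.3), Vcam1 (17.8 against 8.35 to 9.58) and Col1a1 (930 against 435 to 564) stood lower under pressure. The remaining markers Pdgfra (44.3 FPKM against 63.7 to 71.5), Eng (1.34 against 1.52 to 2.43) and Nt5e (0.322 against 0.875 to 1.28) stood higher under pressure. The leukocyte marker Ptprc had at most 2 reads in any library.

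Lysosomes are acidic organelles in which hydrolases break down proteins, glycans and lipids. Cathepsins are their main proteases. Most are papain-like cysteine proteases, while cathepsin D is an aspartic and cathepsin A a serine protease. Many are made as proenzymes, sorted by mannose 6-phosphate receptors and held in check by cystatins. Cathepsin K degrades collagen and is best known from osteoclasts, which release it onto bone, and it is also made by some fibroblasts. The transcription factor TFEB and its relatives TFE3 and MITF bind E-box sequences with the core CACGTG, found in the promoters of many lysosomal genes.

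The promoters of 5 of these genes are printed, picked with their values and motifs known. Ctsk, Npc2 and Grn were lower under pressure, while Ctsd and Lamp1 hold the TFEB-type core and did not pass the size rule. Each is the 250 bases before the RefSeq transcript start on the gene's own strand, build GRCm38.p6, written 5′ to 3′. Capitals mark CACGTG, its longer form TCACGTGA (which contains CACGTG) and TCATGTG, an E-box core bound by MITF, on either strand. The regions are chr3:95498960-95499209 (+) for Ctsk, chr12:84773113-84773362 (-) for Npc2, chr11:102430257-102430506 (+) for Grn, chr7:142387828-142388077 (-) for Ctsd and chr8:13158911-13159160 (+) for Lamp1.
Ctsk: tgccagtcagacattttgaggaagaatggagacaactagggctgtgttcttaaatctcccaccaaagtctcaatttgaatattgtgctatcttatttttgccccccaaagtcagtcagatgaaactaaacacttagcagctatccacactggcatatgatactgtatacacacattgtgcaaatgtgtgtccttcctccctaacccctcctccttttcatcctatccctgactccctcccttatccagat
Npc2: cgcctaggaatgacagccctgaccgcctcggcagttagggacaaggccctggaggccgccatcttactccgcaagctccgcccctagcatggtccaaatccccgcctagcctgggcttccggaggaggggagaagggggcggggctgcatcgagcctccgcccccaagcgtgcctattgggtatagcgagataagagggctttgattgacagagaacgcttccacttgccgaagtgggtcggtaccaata
Grn: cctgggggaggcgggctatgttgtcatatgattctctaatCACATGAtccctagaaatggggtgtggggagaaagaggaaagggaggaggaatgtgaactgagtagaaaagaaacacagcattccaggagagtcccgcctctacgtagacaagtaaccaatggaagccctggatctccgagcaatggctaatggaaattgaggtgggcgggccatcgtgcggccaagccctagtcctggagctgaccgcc
Ctsd: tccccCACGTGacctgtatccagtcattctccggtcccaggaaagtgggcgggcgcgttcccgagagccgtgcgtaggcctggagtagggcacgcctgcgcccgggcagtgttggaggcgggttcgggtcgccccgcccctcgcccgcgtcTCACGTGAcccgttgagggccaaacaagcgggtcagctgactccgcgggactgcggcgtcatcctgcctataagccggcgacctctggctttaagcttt
Lamp1: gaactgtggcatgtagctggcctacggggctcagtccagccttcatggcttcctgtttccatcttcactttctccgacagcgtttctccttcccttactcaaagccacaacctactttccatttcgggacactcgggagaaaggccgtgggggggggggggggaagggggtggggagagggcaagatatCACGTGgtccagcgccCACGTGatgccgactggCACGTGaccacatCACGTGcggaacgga

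Lamp1 holds CACGTG at 61, 45, 28 and 15 bases before its start, and Ctsd at 245 and 98 bases before. Grn holds CACATGA, the reverse complement of TCATGTG, at 210 bases before, and the windows of Ctsk and Npc2 hold none of the letters searched. In windows from 250 bases before to 50 bases after the start, 30 of the 34 genes had an entry, and Ctsb, Ctsh, Asah1 and Npc1 did not. CACGTG stood in 10 of the 30 (33.3%), namely Ctsa, Ctsd, Ctsf, Ctsl, Gaa, Gla, Glb1, Lamp1, Lgmn and Mcoln1, beside 8.09% of all 27025 genes with a window. TCACGTGA stood in 4 of them (13.3%), Ctsa, Ctsd, Gla and Mcoln1, beside 1.12% of all genes. TCATGTG stood in 7 (23.3%), Acp5, Ctsa, Ctss, Gla, Grn, Scarb2 and Tpp1, beside 4.31% of all genes. Of the 10 genes with CACGTG, Ctsl and Ctsa were lower in every pressure library, as were 33.3% of all measured genes. Gla and Lgmn had the control inside the range. The others were higher in every pressure library, as were 51.5% of all measured genes. A match is a description of the letters and no evidence of binding.

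As a group the lysosomal genes lay about as close to the control as all measured genes, and few passed the size rule. At -80 mmHg 1 of the 31 measured genes was higher by the size rule, beside 10.7% of all measured genes, and 4 were lower, beside 6.89%. The numbers were 1 higher (8.85% of all genes) and 2 lower (6.45%) at -120 mmHg, 1 higher (9.59%) and 3 lower (6.03%) at -160 mmHg, and 1 higher (9.1%) and 3 lower (6.38%) at -200 mmHg. The gene higher at each pressure was Ctsb. Ctsk and Npc2 were lower at all 4 pressures, Grn at 3 of them and Ctsl at -80 mmHg. At all 4 pressures together 1 gene was higher, beside 6.49% of all genes, and 2 were lower, beside 4.46%.

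No pressure took 26 of the 31 genes past the size rule, beside 78.1% of all measured genes. Their median log2 difference was 0.11 at -80, 0.12 at -120, 0.08 at -160 and 0.14 at -200 mmHg, and that of all measured genes 0.16, 0.14, 0.15 and 0.14. The control lay below all 4 pressure libraries in 17 genes, beside 51.5% of all genes, and above all 4 in 9, beside 33.3%. These shares lie near those of all genes. When libraries were scaled by a trimmed mean of log ratios, the median of all genes over the 4 pressures moved from 0.15 to 0.00, and the median of the lysosomal genes from 0.11 to -0.048. That scaling also turned the split of all genes past the rule at all 4 pressures from 786 higher and 540 lower to 546 higher and 718 lower, and that of the lysosomal genes from 1 and 2 to 0 and 4.

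**Figure D1:**
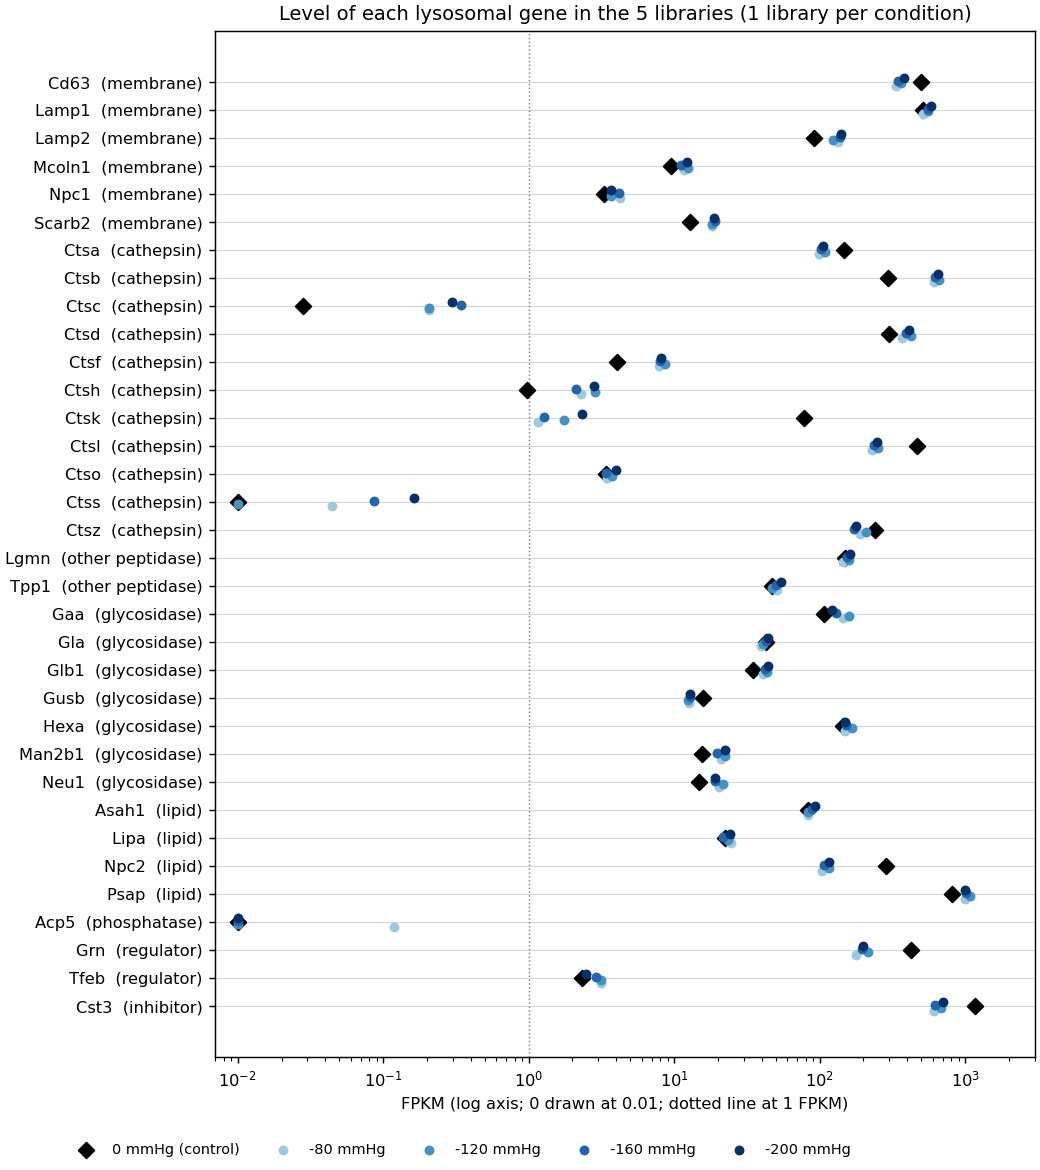
Level of each of the 34 genes in FPKM (log axis, a value of 0 drawn at 0.01), with a black diamond for the control and blue points for the 4 pressure libraries, grouped by role. The pressure points of most genes lie together, and the control stands far from them for Ctsk, at 78.1 FPKM against 1.15 to 2.31 FPKM.

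Cathepsin K differed most. Ctsk (chr3:95499256-95509362, GRCm38, + strand) stood at 78.1 FPKM in the control, 1.15 at -80, 1.75 at -120, 1.28 at -160 and 2.31 at -200 mmHg. The control lay above every pressure library, as it did in 33.3% of all measured genes. In reads these were 2172 in the control against 29, 44, 33 and 63 in the pressure libraries, so the precision of each ratio was set by the low side. Per library total Ctsk was 67.7-fold lower at -80 mmHg (47.0 to 101), 44.5-fold at -120 mmHg (33.1 to 61.5), 60.9-fold at -160 mmHg (43.2 to 88.6) and 33.8-fold at -200 mmHg (26.3 to 44.2). On the log2(FPKM + 1) scale the differences were -5.20, -4.84, -5.11 and -4.58. Counted from the largest decrease, Ctsk ranked 6, 9, 7 and 11 of 12113 genes.

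Among the pressure libraries Ctsk was highest at -200 mmHg and lowest at -80 mmHg. The level at -200 mmHg was 2.002 times that at -80 mmHg (1.27 to 3.22) and 1.80 times that at -160 mmHg (1.16 to 2.83). For the other 4 pairs of pressures the counting interval of the ratio included 1, as for -120 against -80 mmHg with 1.52 (0.930 to 2.52). The 4 levels were not in the order of the pressures. No exon of Ctsk overlaps another annotated gene. Of its neighbours within 100 kb, Arnt (a bHLH-PAS transcription factor), which ends 2015 bases before Ctsk on the same strand, stood at 12.1 FPKM in the control against 16.6 to 19.7 FPKM under pressure, and Golph3l at 10.7 and 11.5 to 13.6 FPKM. Neither passed the size rule. Ctss, 17423 bases beyond Ctsk, had 0 to 4 reads.

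The other 8 measured cathepsins did not share that decrease. Their median log2 difference was 0.16, 0.31, 0.19 and 0.32 from -80 to -200 mmHg, and Ctsk minus that median was -5.36, -5.15, -5.31 and -4.90. In the control Ctsk was 17th in level among the 34 genes, and by the mean of the pressure libraries 31st.

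Ctsb, encoding cathepsin B, a cysteine protease with endo- and carboxypeptidase activity, stood at 294 FPKM in the control against 609, 663, 624 and 656 FPKM at -80, -120, -160 and -200 mmHg. The control lay below every pressure library, as it did in 51.5% of all measured genes. The ratios to the control were 2.07, 2.25, 2.12 and 2.23. Its log2 difference averaged 1.11, and with the trimmed mean of log ratios 0.94, below the size rule. Exons of Ctsb share 12.8% of their bases with Fdft1 on the opposite strand, which stood at 35.05 FPKM in the control against 49.6 to 55.6 FPKM under pressure, and the share of Ctsb reads that come from Fdft1 was not tested.

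Ctsl, encoding the endopeptidase cathepsin L, moved the other way, at 465 FPKM in the control against 227, 251, 235 and 248 FPKM under pressure in the same order. Its differences of -1.03, -0.89, -0.98 and -0.91 lay on either side of the size rule, and the control was above all pressure libraries. The overlapping annotations Gm47123 and Gm49230 share 26.8% of the exon bases of Ctsl and were listed at 0 in every library. Ctsd, encoding cathepsin D, stood at 299 FPKM in the control against 371, 426, 393 and 413 FPKM under pressure, all higher but by a log2 difference of at most 0.51. The overlapping annotation Gm49369 shares 34.4% of the exon bases of Ctsd and was listed at 0 in every library.

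Within a library the ratio of 2 genes does not depend on the library total. Ctsb over Ctsl was 0.632 in the control against 2.68, 2.64, 2.66 and 2.65 in the pressure libraries. The order of both genes was thus turned, and the 4 pressure libraries differed little in it. Ctsd over Ctsl was 0.642 in the control against 1.63 to 1.70 under pressure, while Ctsl over Ctsk was 5.96 and 107 to 197. The summed level of the 11 cathepsins was 1532 FPKM in the control against 1510 to 1673 FPKM under pressure, so the sum hardly differed while its makeup did. Of this sum Ctsl held 30.4% in the control against 15.0% to 15.3% under pressure, Ctsb 19.2% and 39.6% to 40.5%, Ctsd 19.5% and 24.6% to 25.5%, and Ctsk 5.09% and 0.0763% to 0.143%.

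**Figure D2:**
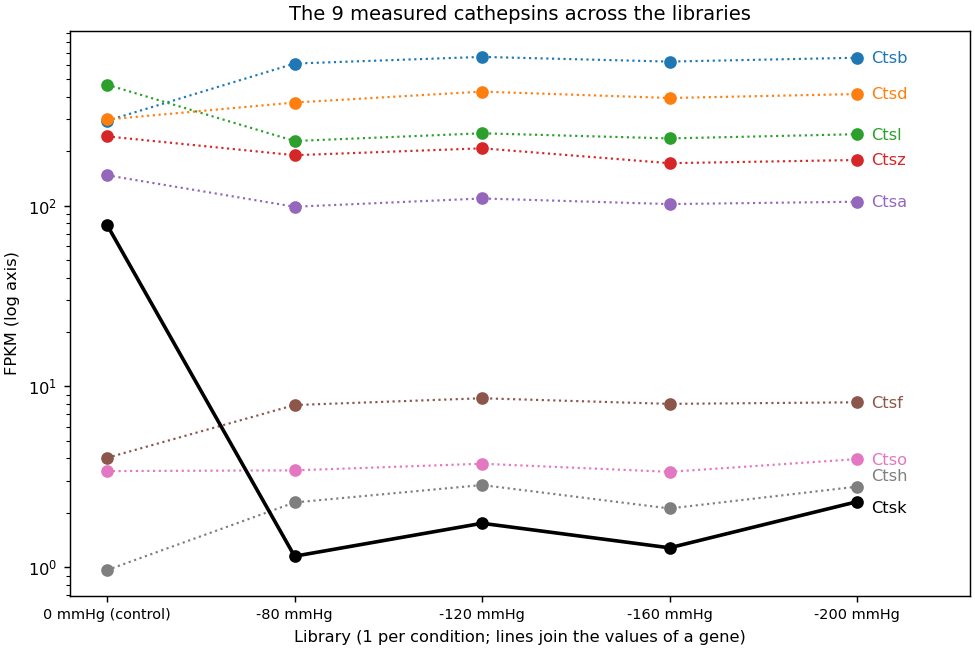
FPKM (log axis) of the 9 measured cathepsins in the 5 libraries, 1 library per condition, with Ctsk in black and lines joining the values of a gene. Ctsk drops from 78.1 FPKM to the lowest level of the 9 under pressure, while Ctsb and Ctsl change places.

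The remaining cathepsins differed in either direction. Ctsz, the carboxypeptidase cathepsin Z, stood at 241 FPKM in the control against 190, 207, 171 and 178 FPKM under pressure, a lower level that turned higher under quantile normalization. Ctsa, encoding cathepsin A (protective protein), which shields neuraminidase and beta-galactosidase, stood at 147 FPKM and at 98.4, 109, 102 and 105 FPKM. Ctsa and Ctsz passed the size rule at no pressure. Exons of Ctsa share 17.4% of their bases with Neurl2 and Pltp on the opposite strand. Neurl2 stood at 6.22 FPKM in the control against 4.23 to 5.93 FPKM under pressure, and Pltp at 16.0 and 21.3 to 23.6 FPKM. The share of Ctsa reads that come from these genes was not tested. Ctsf, encoding cathepsin F, stood at 4.03 FPKM and at 7.89, 8.60, 8.01 and 8.17 FPKM, and Ctsh, encoding the aminopeptidase cathepsin H, at 0.966 FPKM and at 2.28, 2.85, 2.12 and 2.79 FPKM.

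Both Ctsf and Ctsh were higher in every pressure library, as were 51.5% of all measured genes, but under the rule. Per library total Ctsh was 2.36, 2.95, 2.19 and 2.89 times the control, from 80 reads there. These ratios lay above those of Ctsb at each pressure, but few reads set their precision. At -80 mmHg (1.80 to 3.12) and -160 mmHg (1.67 to 2.90) the counting interval of Ctsh included the Ctsb ratio. At -120 mmHg (2.27 to 3.87) and -200 mmHg (2.23 to 3.78) its lower end lay next to the Ctsb ratio. The ratios of Ctsf were 1.96, 2.13, 1.99 and 2.03. With a pseudocount of 0.1 the mean log2 difference of Ctsh was 1.28 in place of 0.83, and Ctsh then passed the rule at all 4 pressures, while Ctsf did not. Ctso, encoding cathepsin O, stood at 3.41 FPKM in the control against 3.37 to 3.97 FPKM under pressure, with the control inside the range of the pressures. Ctsc, encoding the dipeptidyl peptidase that activates granule proteases of leukocytes, had 3 reads in the control against 20, 20, 34 and 31 under pressure. Ctss, the cathepsin of antigen-presenting cells, had 0 reads in the control against 1, 0, 2 and 4 under pressure. A count of 0 allows up to 3 reads, so no difference was detectable for Ctss at this depth. Of 11 further cathepsin genes, among them those expressed in placenta, 10 had 0 reads in all libraries, and Ctsw had 0 to 9.

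The cystatin Cst3 (cystatin C), a secreted inhibitor of cysteine cathepsins, had the highest FPKM of the 34 genes in the control. It did not have the most reads there, with 27134 against 55545 for Ctsl. Cst3 stood at 1165 FPKM in the control and at 610, 682, 620 and 699 FPKM under pressure. All pressure libraries were lower, by log2 differences of -0.93, -0.77, -0.91 and -0.74, short of the size rule. Their mean of -0.84 was -0.21 under quantile normalization and -1.01 with the trimmed mean of log ratios, where Cst3 did not pass at all 4 pressures. Ctsb over Cst3 was 0.252 in the control against 0.939 to 1.01 under pressure. Ctsl over Cst3 differed less, at 0.399 and 0.355 to 0.379. Of 12 other cystatin genes 2 were measured, and the intracellular inhibitor Cstb (cystatin B) was lower at all 4 pressures, beside 4.46% of all genes, at 578 FPKM in the control against 194 to 210 FPKM under pressure. Cst6 stood at 5.32 and 3.10 to 3.89 FPKM.

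Npc2 and Grn were lower as well. Npc2, a soluble protein that binds cholesterol in the lysosome and hands it to the membrane protein NPC1, stood at 286 FPKM in the control against 103, 115, 107 and 115 FPKM under pressure. The control was 2.78-fold above -80 mmHg (2.71 to 2.84) and 2.48-fold above -200 mmHg (2.43 to 2.53). Its log2 differences were -1.46, -1.30, -1.41 and -1.30, with a mean of -1.37 that was -0.96 under quantile normalization, short of the size rule. Its partner Npc1, at 3.29 FPKM in the control against 4.24, 3.67, 4.18 and 3.66 FPKM under pressure, was a little higher, though lower under quantile normalization. Npc2 over Npc1 was 86.8 in the control against 24.3 to 31.6 under pressure.

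Grn encodes progranulin, a secreted and lysosomal glycoprotein that is cut into granulins. It stood at 422 FPKM in the control against 178, 215, 194 and 200 FPKM under pressure. The control was above all pressure libraries, with log2 differences of -1.24, -0.97, -1.12 and -1.08, so that only -120 mmHg missed the size rule. The mean of -1.10 became -0.56 under quantile normalization. Psap encodes prosaposin, which binds progranulin and is the precursor of the saposins that assist sphingolipid breakdown. It stood at 810 FPKM in the control against 997, 1086, 1014 and 1005 FPKM under pressure, higher in every library but under the rule. Psap over Grn was 1.92 in the control against 5.03 to 5.61 under pressure.

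**Figure D3:**
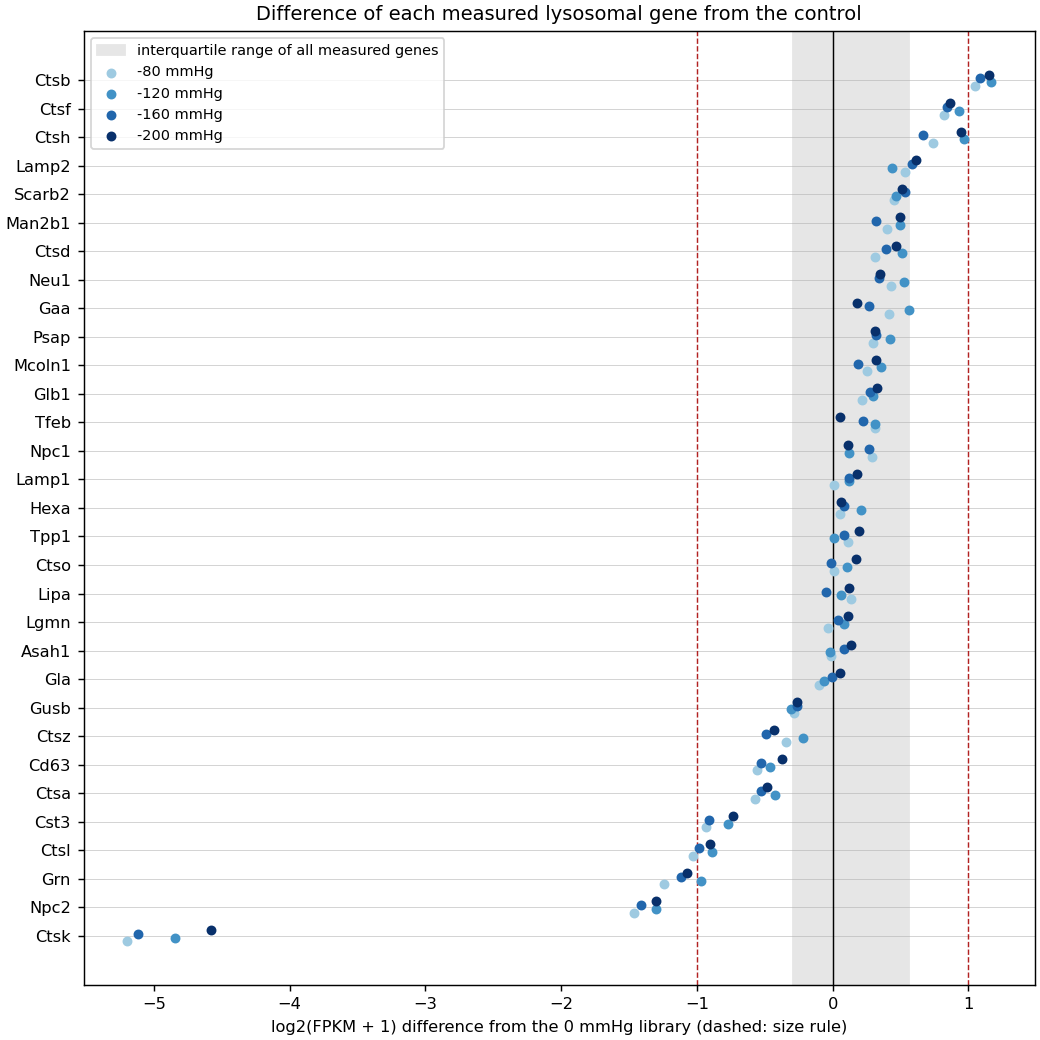
Difference of log2(FPKM + 1) from the control for the 31 measured genes, 1 point per pressure, with dashed lines at the size rule and a grey band for the interquartile range of all measured genes. Ctsk lies between -5.20 and -4.58, Npc2, Grn, Ctsl and Cst3 around -1, Ctsb just above 1, and most other genes within the band.

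None of the 7 glycosidases passed the size rule at any pressure, and 78.1% of all measured genes did not either. Gaa, the acid alpha-glucosidase that degrades glycogen, stood at 108 FPKM in the control against 144, 160, 130 and 122 FPKM under pressure. Neu1, the lysosomal sialidase, stood at 14.9 FPKM and 19.1 to 21.8 FPKM, Man2b1, an alpha-mannosidase, at 15.6 and 19.7 to 22.5 FPKM, and Glb1, a beta-galactosidase, at 34.9 and 40.8 to 44.0 FPKM. These 4 genes were higher in every pressure library, as were 51.5% of all measured genes. Hexa, the alpha subunit of beta-hexosaminidase, stood at 144 FPKM and 149 to 166 FPKM, slightly higher except with the trimmed mean of log ratios, where the sign turned. Gusb, the beta-glucuronidase, was lower in every pressure library, at 15.7 FPKM and 12.5 to 12.9 FPKM. Gla, the alpha-galactosidase, stood at 42.7 FPKM and 39.8 to 44.4 FPKM, with the control inside the range.

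The lipid enzymes and the other peptidases lay close to the control. Lipa, the acid lipase, stood at 22.3 FPKM in the control against 21.6 to 24.6 FPKM under pressure. Asah1, the acid ceramidase, stood at 83.6 FPKM and 82.7 to 92.2 FPKM. Lgmn, the asparaginyl endopeptidase legumain that processes cathepsins, stood at 149 FPKM and 146 to 162 FPKM, and Tpp1, a tripeptidyl peptidase, at 47.0 and 47.4 to 53.9 FPKM. For all 4 the sign of the mean difference turned with the trimmed mean of log ratios. Acp5, the tartrate-resistant acid phosphatase of osteoclasts, had 0 reads in the control, 4 at -80 mmHg and 0 in the other libraries.

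The 6 membrane genes also passed the size rule at no pressure, beside 78.1% of all measured genes. Lamp2, a structural glycoprotein needed for autophagy, stood at 91.5 FPKM in the control against 133, 124, 138 and 141 FPKM under pressure. Scarb2 (LIMP-2), a membrane glycoprotein of lysosomes, stood at 12.9 FPKM and 18.1 to 19.2 FPKM, and the cation channel gene Mcoln1 at 9.57 and 11.1 to 12.5 FPKM. Each of these 3 was higher in every pressure library, as were 51.5% of all measured genes. Lamp1, the other major membrane glycoprotein, stood at 511 FPKM and at 515, 556, 555 and 579 FPKM, a small difference whose sign turned with the trimmed mean of log ratios. Lamp1 over Lamp2 was 5.59 in the control against 3.87 to 4.47 under pressure. The tetraspanin Cd63 stood at 495 FPKM in the control against 337, 360, 343 and 382 FPKM under pressure, lower except under quantile normalization, where its sign turned.

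Tfeb stood at 2.33 FPKM in the control against 3.14, 3.13, 2.88 and 2.46 FPKM from -80 to -200 mmHg, with log2 differences of at most 0.31. Its level was lower at each step from -80 to -200 mmHg, as in 6.19% of all measured genes. The mRNA level bears on neither the location nor the activity of the protein. Its relatives Mitf, at 4.38 FPKM and 3.56 to 3.83 FPKM, and Tfe3, at 8.41 and 9.23 to 10.3 FPKM, also stayed within the size rule, and Tfec had 0 reads.

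The 4 pressures differed little from each other in these genes, as in all measured genes. Between any 2 pressures 0 of the 31 genes differed by the size rule, beside 2.26% of all measured genes. Counted on recovered whole reads without a pseudocount, 1 gene did, namely Ctsk. The median log2 range over the 4 pressures was 0.17, and 0.22 over all measured genes, with the widest range, 0.62, in Ctsk. The highest of the 4 levels was at -80 mmHg in 3 genes, at -120 mmHg in 13, at -160 mmHg in 1 and at -200 mmHg in 14, where all genes gave 26.9%, 24.2%, 25.4% and 23.6%. The lowest was at -80 mmHg in 17 genes, at -120 mmHg in 4, at -160 mmHg in 7 and at -200 mmHg in 3, where all genes gave 25.9%, 28.2%, 18.4% and 27.5%. These orders rest on 1 library per pressure, and whether they hold in another culture was not tested. Among the 31 genes only Gla was higher at each step from -80 to -200 mmHg, beside 5.67% of all genes, and only Tfeb was lower at each step.

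Other lysosomal genes were taken from lists by function and compared on the deposited scale only, where more of all measured genes were higher (6.49%) than lower (4.46%) at every pressure. With the trimmed mean that split of all genes turned, as given above. All 31 further hydrolases were measured, and 4 were higher at all 4 pressures, beside 6.49% of all genes, and 0 lower, beside 4.46%. These were Ids (iduronate sulfatase, 5.03 FPKM in the control against 14.2 to 17.8 under pressure), Manba (beta-mannosidase, 4.57 and 11.3 to 12.6), Gm2a (the GM2 activator, 13.3 and 28.9 to 34.4) and Smpd1 (acid sphingomyelinase, 21.7 and 44.6 to 51.0). A further 26 passed at no pressure, beside 78.1% of all genes, among them Scpep1, a serine carboxypeptidase at 218 FPKM and 175 to 184 FPKM. The median of the list ranged from 0.24 to 0.39 over the pressures, and that of all genes from 0.14 to 0.16. Of 19 further membrane genes 15 were measured, 3 were higher at all 4 pressures (6.49% of all genes), 0 were lower (4.46%), and the median was 0.43 to 0.49. The 3 were the transporters Abca2 (2.48 FPKM and 6.67 to 8.30) and Slc17a5 (4.57 and 10.7 to 12.3), and Cd68 (2.29 and 5.70 to 7.57). Laptm4a, at 392 FPKM and 366 to 422 FPKM, and Laptm4b, at 58.2 and 78.7 to 82.7 FPKM, passed at none.

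The vacuolar proton pump acidifies the lysosome, and 18 of its 19 measured genes passed the rule at no pressure, beside 78.1% of all genes. The exception was Atp6v0e2, at 6.004 FPKM in the control against 23.2 to 27.8 FPKM under pressure. The abundant subunit genes Atp6v1f (168 FPKM and 138 to 159) and Atp6v1g1 (137 and 118 to 131) lay close to the control. In enzyme sorting 1 of 10 measured genes was higher at all 4 pressures, beside 6.49% of all genes. It was Igf2r, the large mannose 6-phosphate receptor, at 19.999 FPKM and 45.1 to 50.6 FPKM. The smaller receptor gene M6pr stood at 35.2 and 55.8 to 57.0 FPKM, and Sumf1, which activates sulfatases, at 22.7 and 29.2 to 31.2 FPKM.

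Of 19 measured TFEB relatives and genes of its control by mTORC1, 1 was higher at all 4 pressures (Rragb, a Rag GTPase, 0.361 FPKM and 2.21 to 3.70) and 1 lower (Lamtor5, a Ragulator subunit, 89.3 and 37.8 to 43.6), close to the 6.49% and 4.46% of all genes. Lamtor2 (61.6 and 42.8 to 51.1 FPKM) and Rraga (37.9 and 41.5 to 45.2 FPKM) were among the 15 that passed at none, beside 78.1% of all genes. Of 19 autophagy genes 18 passed at none, beside 78.1% of all genes, among them the cargo receptor Sqstm1 (246 and 181 to 215 FPKM) and Map1lc3a (106 and 164 to 191 FPKM), and Gabarap at some.

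**Figure D4:**
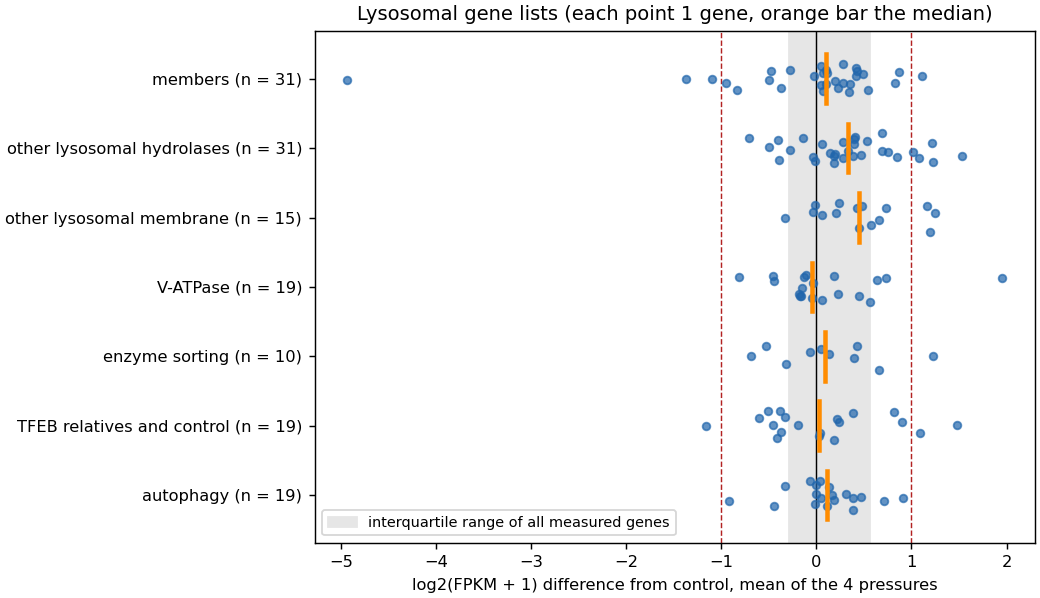
Mean difference of log2(FPKM + 1) from the control over the 4 pressures for each measured gene of 7 lysosomal lists, with the median in orange and a grey band for the interquartile range of all measured genes. The list medians lie within the band, and Ctsk is the point near -5.

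Ctsk is a defining gene of osteoclasts, so the other markers of that cell type are given beside it. In bulk samples fewer cells of a type and less RNA per cell cannot be told apart. Of 11 osteoclast markers, Ctsk and Acp5 included, 4 were measured, and Mmp9 (a gelatinase) was lower with Ctsk at all 4 pressures, beside 4.46% of all genes, at 12.0 FPKM in the control against 2.52 to 2.79 FPKM under pressure. Tnfrsf11a, the receptor RANK, had 108 reads in the control against 2, 0, 1 and 0 under pressure. Itgb3 stood at 2.06 FPKM in the control against 2.30 to 2.89 FPKM under pressure, Nfatc1 at 1.14 and 2.19 to 2.36 FPKM, and Oscar at 0.383 and 0.796 to 1.01 FPKM.

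The fusion gene Dcstamp had 0 reads in all libraries, Acp5 0 in the control, Calcr at most 3, and Ocstamp and Atp6v0d2 1 and 4 in the control. The summed level of the 11 markers was 94.7 FPKM in the control, of which Ctsk made up 78.1, and 9.69 to 10.4 FPKM under pressure. Of 14 macrophage markers 3 were measured, all higher at all 4 pressures, beside 6.49% of all genes, with Lyz2 at 1.57 FPKM and 9.83 to 12.3 FPKM, Cd68 as above, and Cd14 at 23.6 and 50.3 to 55.6 FPKM. Below the filter, Csf1r had 10 reads in the control against 36 to 42 under pressure. Fcer1g (7 reads against 0 to 3), Laptm5 (6 against 0 to 2) and Fcgr3 (3 against 0) went the other way. Spi1, Mrc1 and Cx3cr1 had at most 12 reads in any library. Itgam and Tyrobp had 0 reads in all libraries and Adgre1 at most 1. The summed level of the 14 was 28.2 FPKM in the control against 67.0 to 74.8 FPKM under pressure. The part of these cell types in the level of any cathepsin was not tested.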

How the data were processed

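RNA-seq was available for 5 mouse BMSC libraries, 1 per pressure. Gene-level FPKM for all libraries came in a single table deposited by the authors. The submitters' processing notes list HISAT2, SAMtools, featureCounts 1.5.0-p3 and the build rn6, a rat genome. The table's IDs are mouse Ensembl IDs, so mouse annotation (GENCODE release M21, GRCm38) was used. The sources used here do not state whether counting used strand, and overlapping genes or close paralogs may share reads.

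Versioned IDs matched for 54349 of 55401 genes, and 55141 matched when the version was ignored. Deposited FPKM times exon length gave whole reads for 54719 genes (98.8%, tolerance 0.001 reads), which made up 98.2% to 98.6% of the library totals. For 2 genes, Grn and Gla, the exon length of another version was used. These reads served for counting intervals, single-gene reads and 1 alternative. Reads are not independent molecules, and the floor for 0 reads was 3 reads per library. Columns of other samples numbered 0.

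The 34 genes and all lists were chosen with earlier results of these data known, and TCATGTG was added to the motifs after values were known. From each other list, up to 4 genes past the size rule in 1 direction at all 4 pressures and up to 2 abundant genes past it at none were named, with all osteoclast and macrophage markers that reached 1 FPKM. Other list genes were named after their values were seen. Among them were Thy1, Lepr, Pdgfra, Pdgfrb, Eng, Nt5e, Vcam1, Col1a1, Mitf, Csf1r and markers near 0 reads. A gene that the rule names is not reported here. Promoter sequences are from RefSeq, GRCm38.p6. The functions were tested on simulated reads. Calculations used scipy 1.17.1, numpy 2.4.6 and pandas 2.3.3 in Python 3.11.15, and plots matplotlib 3.10.9.

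Alternatives changed the scaling (quantile normalization, upper quartile, trimmed mean of log ratios with 30% off each end, or without the 50 most abundant genes), the pseudocount (0.1 or 5), the filter (none, or a mean of 5 FPKM), the threshold (1.5-fold) and the input (recovered whole reads).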

Additional observations from a re-analysis of the deposited data

How the results depend on the processing

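Of 57 values of the 6 summary results under 10 alternatives, 40 stayed within a set tolerance and 17 moved. Among the latter the median of the lysosomal genes changed sign. For counts of genes the tolerance was 1.5 times the count. For the Ctsk results it was 0.473, the mean half-width of its log2 counting intervals. For the median of the lysosomal genes it was 0.0563, the median half-width of single measured genes, which is not the error of that median. The number of genes higher at all 4 pressures, 1 as reported, was 2 with a pseudocount of 0.1 and on recovered whole reads (Ctsb and Ctsh), 3 at 1.5-fold and 0 with the trimmed mean of log ratios. The number lower, 2 as reported, was 4 with that trimmed mean (with Ctsl and Grn), 5 at 1.5-fold (with Cst3 also) and 1 under quantile normalization (Ctsk). The median of the lysosomal genes, 0.11 as reported, was -0.048 with the trimmed mean and 0.22 under quantile normalization. The mean difference of Ctsk, -4.93, was -5.55 with a pseudocount of 0.1, -3.65 with 5 and -5.64 on whole reads. Its distance to the other cathepsins, -5.18, was -5.81, -3.84 and -5.90 in the same order. Between any 2 pressures 1 gene in place of 0 passed at 1.5-fold and on whole reads. The cause of these shifts was not tested. No paired analysis was possible because each condition has 1 library, and for the same reason no replicate could be left out. Depth limits Ctsk under pressure, with 29 to 63 reads, and leaves Ctss and Acp5 at or near 0 reads.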
